A study of Homo sapiens with 16 samples.

Results

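The 54 genes described here encode proteins that make ribosomes. They were chosen by name from the 26364 genes of the deposited count tables, and all 54 passed the filter on low counts in both cell lines. By role, 3 belong to box C/D small nucleolar ribonucleoproteins (snoRNPs), 2 to box H/ACA snoRNPs, 4 are abundant nucleolar proteins, 21 act on the small ribosomal subunit, 18 on the large subunit, and 6 belong to RNA polymerase I or its initiation machinery.

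The counts came from bulk RNA-seq of Ishikawa cells, derived from an endometrial adenocarcinoma, and T-47D cells, derived from a breast carcinoma. Both lines had been kept for 3 days in phenol-red-free medium with charcoal-stripped serum and then received 10 nM 17β-estradiol (E2) for 0, 2, 4 or 8 h, so the 0 h cells were hormone-deprived and had no E2. The 3 days are those of the labels, and the study's methods give a longer deprivation. Those methods also describe the 0 h cells as treated with vehicle. There were 2 replicates per time point, 8 libraries per line and 16 in all. The labels do not say whether replicates came from separate cultures, so p-values measure only the spread between these samples, which may be technical.

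Ribosomes are assembled in the nucleolus, where RNA polymerase I transcribes the ribosomal DNA into a long precursor. Box C/D and box H/ACA snoRNPs methylate and pseudouridylate that precursor, and large assemblies of helicases, GTPases and WD-repeat proteins fold it, cut it and join it to ribosomal proteins as the small and the large subunit mature. Estrogen drives growth of estrogen receptor-positive breast and endometrial cells, and growing cells need new ribosomes. The libraries were made from poly(A) RNA, so the ribosomal RNA precursor itself was not measured.

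Each library held between 41177912 and 64148903 counts. The 5 epithelial markers (EPCAM, CDH1, KRT8, KRT18, KRT19) and ESR1, the estrogen receptor gene, were expressed in every library of both lines. The epithelial sum was between 2969 and 3005 CPM (counts relative to the library's total, without further scaling) at 0 h and between 2560 and 2858 at 4 h and 8 h in Ishikawa cells, and was between 9720 and 10105 at 0 h and between 12169 and 12576 at 4 h and 8 h in T-47D cells. ESR1 went from between 239 and 249 CPM to between 170.4 and 179 in Ishikawa cells and from between 163 and 166 to between 183 and 202 in T-47D cells. The summed level of GREB1 and PGR, known E2 targets, went from between 10.1 and 10.6 CPM at 0 h to between 38.3 and 49.5 at 8 h in Ishikawa cells and from between 755 and 765 to between 1817 and 1932 in T-47D cells. The 4 immune markers summed to between 1.82 and 3.93 CPM, with PTPRC and CD3E at or near 0, and the 3 endothelial markers summed to less than 9 CPM, nearly all of it VWF in Ishikawa cells, with PECAM1 and CDH5 at or near 0. Of the 4 fibroblast markers only COL1A1 was abundant, and their sum went from between 254 and 283 CPM at 0 h to between 151 and 205 at 4 h and 8 h in Ishikawa cells and from between 85.2 and 91.3 to between 70.0 and 84.01 in T-47D cells, while DCN and PDGFRA stayed under 1 CPM. The part of these markers in the results below was not tested.

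Most of the 54 genes rose with E2 in both lines. More of them were called at 2 h in T-47D cells, and the median change was larger there at each time. In the sum over all 54, the level in Ishikawa cells was 8076 and 7905 CPM without E2, 8446 and 8474 CPM after 2 h, 9973 and 9011 CPM after 4 h, then 9149 and 9861 CPM by 8 h (CPM on library sizes scaled by TMM, the trimmed mean of M-values, within the line). In T-47D cells the sum was 4573 and 4424 CPM without E2, 5028 and 5076 CPM after 2 h, 5681 and 5577 CPM after 4 h, then 6018 and 6011 CPM by 8 h. No treated library of either line fell to the level of its 0 h libraries, and at 4 h and 8 h the replicates of T-47D cells lay closer together than those of Ishikawa cells. Levels are relative to each library's total, so in these bulk samples fewer cells of a type and less RNA per cell cannot be told apart.

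**Figure D1:**
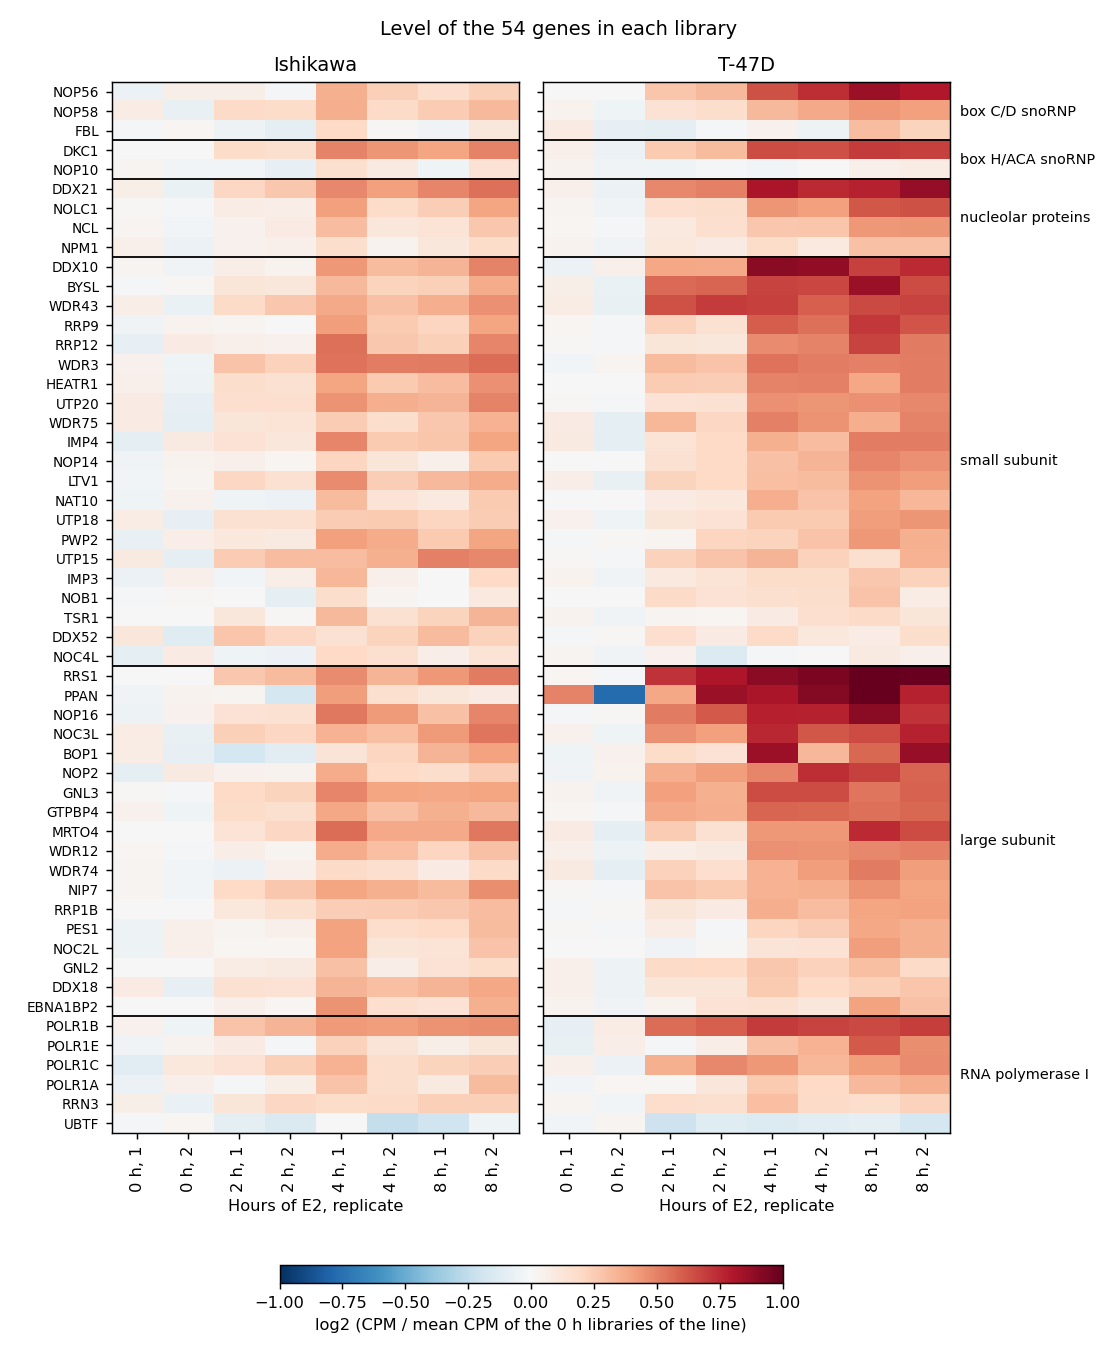
Level of each of the 54 genes (rows, grouped by role and ordered by the late change in T-47D cells) in each of the 16 libraries (columns), as the log2 ratio of its CPM to the mean of the 2 libraries at 0 h of the same line. Red is above and blue below that mean, the scale ends at −1 and 1, and red spreads over most rows from 4 h in Ishikawa cells and from 2 h in T-47D cells, while the UBTF row is pale blue in most treated libraries. The single deep blue field is PPAN in replicate 2 of 0 h in T-47D cells.

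Genes were called by edgeR's quasi-likelihood test at a Benjamini-Hochberg adjusted p under 0.05 over all genes tested in the line. In Ishikawa cells, 5 of the 54 genes were called higher at 2 h, where 2.61% of all genes tested were, with a median log2 fold change of 0.09. At 4 h 38 were called higher (background 7.66%) with a median of 0.29, and at 8 h 38 (background 12%) with a median of 0.29. None was called lower at any of these times, where edgeR gave 0 of 54 with a negative change at an unadjusted p under 0.05 and DESeq2 also called 0. Of all genes tested, 1.74%, 6.6% and 10.1% were called lower at 2, 4 and 8 h. In the mean of the 4 h and 8 h libraries against 0 h, called the late change from here on, 43 were higher (background 13.2%) with a median of 0.28. The largest change at any time in Ishikawa cells was 1.45-fold, in WDR3.

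The Ishikawa counts rested on single libraries. The 5 calls at 2 h became 16 without replicate 1 of 0 h, 1 without replicate 2 of 0 h, 1 without replicate 1 of 2 h and 0 without replicate 2 of 2 h. The 38 calls at 4 h became 16 without replicate 1 of 4 h, and the 38 at 8 h became 21 without replicate 2 of 8 h, while the late count stayed between 30 and 45 when any 1 library was left out. Replicate 1 of 4 h and replicate 2 of 8 h held the highest summed levels and the lowest TMM factors of the line (0.9793 and 0.9823, against 0.9979 to 1.02), whose part in the counts was not tested. The 4 late libraries resembled each other across their time labels. Over the 54 genes the root mean square log2 difference was 0.0949 between replicate 1 of 4 h and replicate 2 of 8 h and 0.0687 between replicate 2 of 4 h and replicate 1 of 8 h, against 0.149 within 4 h and 0.122 within 8 h. For that reason the late change is used for Ishikawa cells, and a step from 4 h to 8 h is not described there. Over all genes tested the same pairs lay at 0.365 and 0.329, against 0.391 within 4 h and 0.353 within 8 h. In T-47D cells 1 pair across labels, replicate 1 of 4 h and replicate 2 of 8 h, lay at 0.101 over the 54 genes. The pair within 4 h lay there at 0.096 and that within 8 h at 0.111, and the other pairs across labels at 0.135 to 0.16. By the labels as given, edgeR called 2 of 15787 genes between 8 h and 4 h and none of the 54, of which 3 had p under 0.05 before adjustment.

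In T-47D cells, 25 genes were called higher at 2 h (background 4.9%) with a median log2 fold change of 0.17, and 1 was called lower (background 4.4%). At 4 h 45 were called higher (background 11.1%) with a median of 0.35, and edgeR called none lower (background 10.4%). There 1 gene with a negative change had an unadjusted p under 0.05 and DESeq2 called it. At 8 h 50 were called higher (background 15.4%) with a median of 0.45 and 1 lower (background 14.3%), and in the late change 50 were higher (background 15.5%) with a median of 0.42 and 1 lower (background 14.9%). The gene called lower was UBTF each time, and its call was lost in 6 of the 8 fits at 2 h that left out 1 library, in 7 of 8 at 8 h and in 2 of 8 in the late change. The late count stayed between 46 and 50 whichever library was left out, and the largest change was 1.995-fold, in RRS1 at 8 h. The median over all genes tested was within 0.01 of 0 in each of these comparisons on the log2 scale.

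Levels per library were also compared directly. In Ishikawa cells 47 of the 54 genes had all 4 libraries of 4 h and 8 h above both 0 h libraries in CPM, as did 21.7% of all genes tested. In T-47D cells 50 did, against 21.3% of all genes tested. At 2 h both treated libraries exceeded both 0 h libraries for 34 genes in Ishikawa and 43 in T-47D cells, where 25.4% and 25.3% of all genes tested did.

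**Figure D2:**
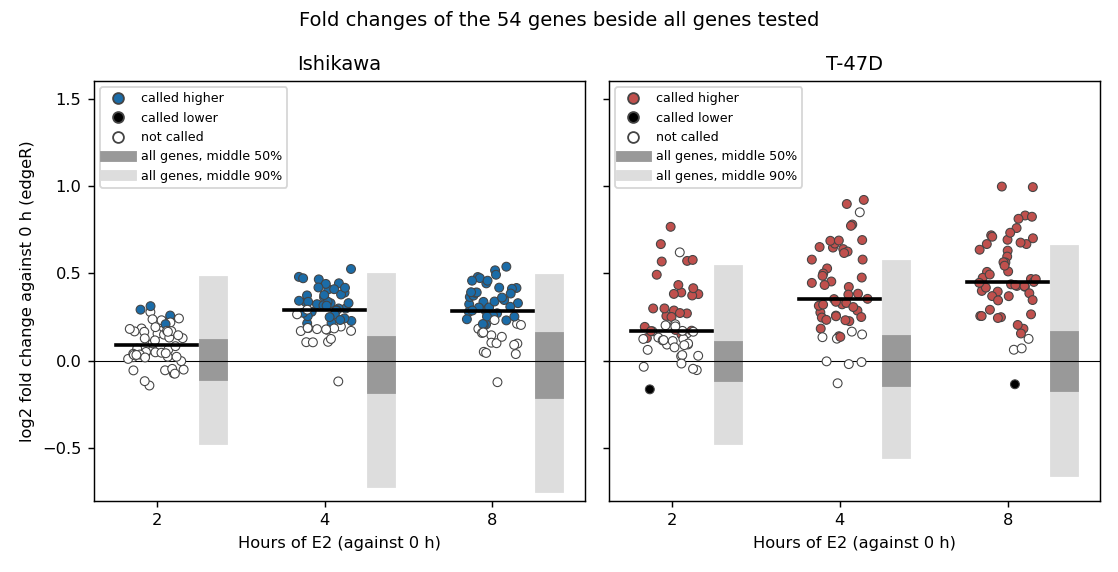
Log2 fold change of each of the 54 genes (points) at 2, 4 and 8 h against 0 h in each line, with the median as a black line and the middle 50% and 90% of all genes tested as dark and light bars. Filled points passed the adjusted p of 0.05, and the median of the 54 lies at 0.09, 0.29 and 0.29 in Ishikawa cells and at 0.17, 0.35 and 0.45 in T-47D cells, while all genes centre on 0.

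Promoter sequence was examined because the genes moved together. The E-box CACGTG, the letters bound by MYC with its partner MAX, stood in the RefSeq promoter window (GRCh38.p14, 250 bases before to 50 bases after the start) of 20 of the 45 genes that have one in the table used here, or 44.4%, against 8.77% of all 27305 genes with a window and 12.1% of the 12079 among them that were tested in these data. The word reads the same on both strands. Of the 24 matches, 20 lay within 50 bases of the start, in 20 genes, and among other genes with the word 39.5% had it that close. Of the genes with the word, FBL and NOP10 were not called late in either line and NOP14 not in Ishikawa cells. The following windows of 30 bases are printed to show the word in 8 others, all called higher late in both lines. These are a nucleolar helicase, 3 small-subunit and 4 large-subunit genes. The windows run 5′ to 3′ on the strand of the gene with the E-box in capitals. They lie at chr10:68956604-68956633 (+) for DDX21, chr2:28894658-28894687 (+) for WDR43, chr6:41921515-41921544 (+) for BYSL, chr12:101280083-101280112 (+) for UTP20, chr3:52686026-52686055 (+) for GNL3, chr1:19251807-19251836 (+) for MRTO4, chr10:94362903-94362932 (−) for NOC3L and chr1:37595917-37595946 (−) for GNL2.
DDX21: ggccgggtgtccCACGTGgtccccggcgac
WDR43: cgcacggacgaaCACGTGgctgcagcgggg
BYSL: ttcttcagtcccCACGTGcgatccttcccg
UTP20: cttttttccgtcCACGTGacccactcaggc
GNL3: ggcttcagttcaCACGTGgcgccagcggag
MRTO4: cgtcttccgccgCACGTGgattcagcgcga
NOC3L: tagggacttcggCACGTGtgtcattccccg
GNL2: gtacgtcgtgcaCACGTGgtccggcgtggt

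Genes with and without the word rose. Of the 20 genes with CACGTG, 17 were called higher in the late change in Ishikawa and 18 in T-47D cells, with medians of 0.31 and 0.41. Of the 25 without it 18 and 23 were, with medians of 0.25 and 0.42. Among all genes tested, 13.2% in Ishikawa and 15.5% in T-47D cells were called higher late. A second word, CCGGAAG, which ETS-family factors bind, was searched on both strands and was also in 20 of the 45 windows (44.4%), against 12.2% of all genes and 19.4% of those tested. The full estrogen response element, the half-sites GGTCA and TGACC with any 3 bases between them, was in 0 of the 45 windows and in 0.0732% of all. A match is a match of letters, and binding was not measured here.

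Box C/D snoRNPs guide ribose methylation of ribosomal RNA, and all 3 members are core proteins of the particle. NOP56, a scaffold of the particle at chr20:2633239-2639039 (GRCh37), changed most of the 3 in T-47D cells. In Ishikawa cells it stood at 213 and 231 CPM without E2, 232 and 219 CPM after 2 h, 284 and 262 CPM after 4 h, then 251 and 261 CPM by 8 h. The late libraries lay above both 0 h libraries and 1 of the 2 libraries of 2 h did not, with a late log2 fold change of 0.25 ± 0.05 (adjusted p = 0.00342) in edgeR's test, where ± is the SE. In T-47D cells NOP56 stood at 99.5 and 100.3 CPM without E2, 121 and 125 CPM after 2 h, 156 and 167 CPM after 4 h, then 182 and 174 CPM by 8 h. All 6 treated libraries exceeded both 0 h libraries, and the log2 fold change grew from 0.30 ± 0.05 at 2 h to 0.83 ± 0.05 (adjusted p = 5.19e-10) at 8 h in edgeR's test.

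NOP58, the partner of NOP56, rose in both lines. Its level in Ishikawa cells was 133 and 119.7 CPM without E2, 144 and 143 CPM after 2 h, 163 and 144 CPM after 4 h, then 150.3 and 158 CPM by 8 h, and in edgeR's test the late log2 fold change was 0.28 ± 0.06 (adjusted p = 0.00318), which lost its call without replicate 2 of 0 h (0.21, adjusted p = 0.0749). Its level in T-47D cells was 63.6 and 60.2 CPM without E2, 68.3 and 69.8 CPM after 2 h, 77.7 and 80.5 CPM after 4 h, then 83.8 and 82.3 CPM by 8 h, with a late change of 0.39 ± 0.04 (adjusted p = 2.28e-06). E2-treated and 0 h libraries did not overlap in either line.

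FBL, the fibrillarin methyltransferase of the same particle, was the exception. In Ishikawa cells its level was 218 and 222 CPM without E2, 212 and 206 CPM after 2 h, 253 and 222 CPM after 4 h, then 214 and 238 CPM by 8 h, so that treated libraries fell on both sides of the 0 h libraries, with a late log2 fold change of 0.07 ± 0.06 (adjusted p = 0.394) in edgeR's test. In T-47D cells it was 70.2 and 62.6 CPM without E2, 62.3 and 65.8 CPM after 2 h, 68.3 and 64.2 CPM after 4 h, then 82.4 and 77.3 CPM by 8 h. Only the libraries of 8 h rose above both 0 h libraries, where edgeR gave 0.27 ± 0.06 (adjusted p = 0.00262), while the late change of 0.13 ± 0.05 (adjusted p = 0.0688) did not pass and passed without replicate 1 of 0 h (0.23, adjusted p = 0.0106) or without replicate 2 of 8 h (0.16, adjusted p = 0.0319).

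Of the 2 box H/ACA members, DKC1, the pseudouridine synthase dyskerin, rose in both lines and NOP10, a small protein of the same particle, did not pass in either. DKC1 stood in Ishikawa cells at 151 and 152.7 CPM without E2, 173 and 169.7 CPM after 2 h, 214 and 206 CPM after 4 h, then 199.6 and 214 CPM by 8 h. In T-47D cells it stood at 59.5 and 55.1 CPM without E2, 68.8 and 71.2 CPM after 2 h, 90.1 and 89.5 CPM after 4 h, then 93.1 and 92.2 CPM by 8 h. Replicates were close together and no treated library of either line reached down to the 0 h levels. In edgeR's test the late log2 fold change of DKC1 was 0.45 ± 0.05 (adjusted p = 1.07e-05) in Ishikawa cells and 0.67 ± 0.05 (adjusted p = 3.43e-09) in T-47D cells, and at 2 h it passed only in T-47D cells, at 0.29 ± 0.05 (adjusted p = 0.000905) against 0.17 ± 0.06 (adjusted p = 0.114). NOP10 changed by 0.09 ± 0.06 and 0.02 ± 0.04 in the late contrast.

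The 4 abundant nucleolar proteins were led by DDX21, an RNA helicase of the nucleolus, at chr10:70715891-70744824 (GRCh37). In Ishikawa cells its level was 366 and 337 CPM without E2, 407 and 423 CPM after 2 h, 489.9 and 466 CPM after 4 h, then 492 and 515 CPM by 8 h. In T-47D cells it was 189 and 175 CPM without E2, 254 and 258 CPM after 2 h, 319.6 and 305 CPM after 4 h, then 310.2 and 334 CPM by 8 h. The 2 h libraries of both lines were already above both 0 h libraries, and DDX21 was among the genes called at 2 h in both, at 0.24 ± 0.06 (adjusted p = 0.0271) in Ishikawa cells and 0.49 ± 0.05 (adjusted p = 9.79e-07) in T-47D cells by edgeR. The Ishikawa call at 2 h was lost without replicate 2 of 0 h or either library of 2 h. By the late contrast the change of DDX21 was 0.48 ± 0.05 (adjusted p = 8.48e-06) and 0.80 ± 0.04 (adjusted p = 1.53e-10), respectively.

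NCL, nucleolin, was after NPM1 the most abundant of the 54 per kilobase before E2 in Ishikawa cells. It stood at 1536 and 1478 CPM without E2, 1556 and 1591 CPM after 2 h, 1870 and 1628 CPM after 4 h, then 1655 and 1820 CPM by 8 h in Ishikawa cells. It stood at 479.8 and 466 CPM without E2, 505 and 531 CPM after 2 h, 571 and 574 CPM after 4 h, then 639.7 and 641 CPM by 8 h in T-47D cells. No treated library overlapped the 0 h libraries, and edgeR gave a late log2 fold change of 0.21 ± 0.06 (adjusted p = 0.0134) in Ishikawa cells, lost without replicate 2 of 0 h (0.18, adjusted p = 0.149), and 0.36 ± 0.03 (adjusted p = 1.6e-07) in T-47D cells.

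NPM1, nucleophosmin, a histone and ribosome chaperone of the nucleolus, changed least of the 4. Its Ishikawa level was 1204 and 1117 CPM without E2, 1198 and 1203 CPM after 2 h, 1312 and 1188 CPM after 4 h, then 1252 and 1317 CPM by 8 h, with 3 of the 4 late libraries but neither 2 h library above both 0 h libraries and a late change of 0.13 ± 0.05 (adjusted p = 0.0803) in edgeR's test, which passed without replicate 1 of 0 h (adjusted p = 0.0393) or replicate 2 of 4 h (adjusted p = 0.0211). Its T-47D level was 1048 and 998 CPM without E2, 1098 and 1085 CPM after 2 h, 1160 and 1096 CPM after 4 h, then 1250 and 1256 CPM by 8 h, with no overlap and a late change of 0.22 ± 0.03 (adjusted p = 3.39e-05). Reads of NPM1 may be shared with its processed pseudogenes, and the treatment of reads with several alignments is not given in the sources used here. NOLC1, a chaperone of snoRNPs, changed by 0.31 ± 0.06 in Ishikawa and 0.53 ± 0.04 in T-47D cells in the late contrast.

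Among the 21 small-subunit genes, 17 were called higher in the late contrast in Ishikawa (background 13.2%) and 20 in T-47D cells (background 15.5%). The medians were 0.32 and 0.40 on the log2 scale, and none was called lower by either tool or at an unadjusted p under 0.05. Of all genes tested, edgeR called 11.9% and 14.9% lower. WDR3, a WD-repeat subunit of the small-subunit processome, had the largest late change of all 54 genes in Ishikawa cells. It stood there at 91.7 and 86.2 CPM without E2, 108 and 105 CPM after 2 h, 129.5 and 126 CPM after 4 h, then 128 and 131 CPM by 8 h. In T-47D cells it stood at 37.5 and 38.8 CPM without E2, 47.5 and 46.4 CPM after 2 h, 55.6 and 54.5 CPM after 4 h, then 54.1 and 54.4 CPM by 8 h. All treated libraries lay above the 0 h libraries in both lines, with a late change of 0.53 ± 0.05 (adjusted p = 2.81e-06) in Ishikawa cells and 0.52 ± 0.05 (adjusted p = 1.48e-07) in T-47D cells by edgeR, and the 8 h changes differed between the lines by -0.03 ± 0.07 (adjusted p = 0.882). At 2 h WDR3 was called in both lines, at 0.26 ± 0.06 and 0.30 ± 0.05, the former lost without replicate 2 of 0 h or either library of 2 h.

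WDR43, another WD-repeat protein of the processome, at chr2:29117533-29171085 (GRCh37), reached its full T-47D level within 2 h. It stood in T-47D cells at 28.3 and 25.5 CPM without E2, 41.8 and 43.7 CPM after 2 h, 43.1 and 40.7 CPM after 4 h, then 42.5 and 43.0 CPM by 8 h. From 2 h on the libraries lay between 40.7 and 43.7 CPM, and edgeR's log2 fold changes were 0.67 ± 0.06 (adjusted p = 9.12e-07) at 2 h and 0.67 ± 0.06 (adjusted p = 3.5e-07) at 8 h. In Ishikawa cells its level was 103 and 93.8 CPM without E2, 112 and 119 CPM after 2 h, 128 and 121 CPM after 4 h, then 127 and 136 CPM by 8 h. There the late change was 0.37 ± 0.06 (adjusted p = 0.000284) and the 2 h change of 0.23 ± 0.07 (adjusted p = 0.061) did not pass, although it passed without replicate 1 of 0 h (0.30, adjusted p = 0.019) and in DESeq2 (adjusted p = 0.0276).

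DDX10, a helicase needed for small-subunit maturation, had its highest mean level at 4 h in T-47D cells. It stood there at 39.7 and 42.8 CPM without E2, 53.9 and 53.5 CPM after 2 h, 77.3 and 76.2 CPM after 4 h, then 66.3 and 69.3 CPM by 8 h. In Ishikawa cells it stood at 47.1 and 45.1 CPM without E2, 48.4 and 47.3 CPM after 2 h, 62.2 and 57.4 CPM after 4 h, then 58.5 and 64.9 CPM by 8 h. All treated libraries were above the 0 h libraries of their line, the Ishikawa 2 h libraries by little, and in T-47D cells both 8 h libraries were below both 4 h libraries, a step of -0.18 ± 0.05 (adjusted p = 0.0685). In edgeR's test the T-47D change was 0.90 ± 0.05 (adjusted p = 1.11e-09) at 4 h and 0.72 ± 0.05 (adjusted p = 1.71e-08) at 8 h, and the Ishikawa late change was 0.40 ± 0.06 (adjusted p = 0.000389). The step of DDX10 from 2 h to 4 h in T-47D cells, 0.52 ± 0.05 (adjusted p = 1.1e-05), was the largest of the 54.

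Of the other small-subunit genes, BYSL, which acts late in small-subunit maturation, changed by 0.29 ± 0.06 in Ishikawa and 0.71 ± 0.07 in T-47D cells in the late contrast, and RRP9, a protein of the U3 snoRNP, by 0.32 ± 0.07 and 0.62 ± 0.07. UTP15, a processome subunit, changed by 0.41 ± 0.07 and 0.27 ± 0.07, and the difference of the lines at 8 h was -0.24 ± 0.11 (adjusted p = 0.203). NOC4L was the small-subunit gene not called late in T-47D cells (0.03 ± 0.06), and NOC4L, IMP3, NOB1 and NOP14 were those not called late in Ishikawa cells, with changes from 0.08 to 0.17.

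Of the 18 large-subunit genes, 16 were called higher late in Ishikawa cells (background 13.2%) and all 18 in T-47D cells (background 15.5%), with medians of 0.29 and 0.52. RRS1, a regulator of large-subunit assembly encoded by a single exon, had the largest change of the 54 in T-47D cells at 2, 4 and 8 h. It stood there at 28.2 and 27.3 CPM without E2, 45.9 and 48.6 CPM after 2 h, 51.8 and 53.3 CPM after 4 h, then 55.7 and 55.0 CPM by 8 h. The 2 h libraries were already well above both 0 h libraries, and edgeR gave a log2 fold change of 0.77 ± 0.06 (adjusted p = 3.28e-08) at 2 h and 1.00 ± 0.06 (adjusted p = 4.39e-10) at 8 h. In Ishikawa cells RRS1 stood at 63.9 and 64.4 CPM without E2, 77.2 and 80.0 CPM after 2 h, 89.1 and 81.4 CPM after 4 h, then 86.5 and 91.8 CPM by 8 h. The groups did not overlap there either, with 0.29 ± 0.06 (adjusted p = 0.0133) at 2 h, lost without replicate 2 of 0 h or either library of 2 h, and 0.44 ± 0.06 (adjusted p = 5.06e-05) late.

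MRTO4, a factor of pre-large-subunit assembly related to a ribosomal stalk protein, rose in steps to 8 h in T-47D cells. Its T-47D level was 30.9 and 27.5 CPM without E2, 34.9 and 32.4 CPM after 2 h, 39.5 and 39.5 CPM after 4 h, then 49.1 and 46.0 CPM by 8 h. Its Ishikawa level was 88.6 and 88.4 CPM without E2, 97.2 and 102 CPM after 2 h, 130.5 and 115 CPM after 4 h, then 115 and 128 CPM by 8 h. No treated library overlapped the 0 h libraries in either line, and edgeR's late change was 0.57 ± 0.06 (adjusted p = 1.02e-06) and 0.47 ± 0.06 (adjusted p = 7.55e-05), respectively, although at 2 h neither line passed (0.20 ± 0.07 and 0.17 ± 0.07). Without replicate 1 of 0 h the T-47D change at 2 h passed (0.30, adjusted p = 0.0178).

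PPAN, a large-subunit assembly factor, ranked among the largest changes in T-47D cells but on very low levels. It stood there at 0.877 and 0.364 CPM without E2, 0.812 and 1.13 CPM after 2 h, 1.09 and 1.18 CPM after 4 h, then 1.44 and 1.06 CPM by 8 h. The 2 libraries of 0 h differed by more than those of any other time point, and the late log2 fold change of 0.92 ± 0.32 (adjusted p = 0.036) in edgeR's test fell to 0.44 (adjusted p = 0.403) without replicate 2 of 0 h and went up to 1.71, still called, without replicate 1 of 0 h. It missed the threshold without replicate 2 of 4 h (adjusted p = 0.0538) or replicate 1 of 8 h (adjusted p = 0.084), and had an adjusted p of 0.0676 in DESeq2. In Ishikawa cells it stood at 2.95 and 3.11 CPM without E2, 3.09 and 2.69 CPM after 2 h, 4.04 and 3.39 CPM after 4 h, then 3.28 and 3.22 CPM by 8 h and its late change was 0.20 ± 0.16 (adjusted p = 0.397). PPAN shares exons with the read-through gene PPAN-P2RY11, so its counts are uncertain.

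NOP16, NOP2, NOC3L, GNL3 and BOP1 were other large-subunit genes with late changes over 0.60 in T-47D cells, at 0.79 ± 0.07, 0.63 ± 0.08, 0.70 ± 0.06, 0.61 ± 0.05 and 0.68 ± 0.13. NOP2 is a ribosomal RNA methyltransferase, GNL3 is the GTPase nucleostemin, and BOP1 is a subunit of the PeBoW complex with PES1 and WDR12. The other PeBoW subunits changed by 0.30 ± 0.04 for PES1 and 0.47 ± 0.07 for WDR12. In Ishikawa cells the same 3 PeBoW genes changed by 0.27 ± 0.08, 0.27 ± 0.06 and 0.30 ± 0.06 late, each called by edgeR. PPAN and WDR74 were the large-subunit genes not called late in Ishikawa cells.

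**Figure D3:**
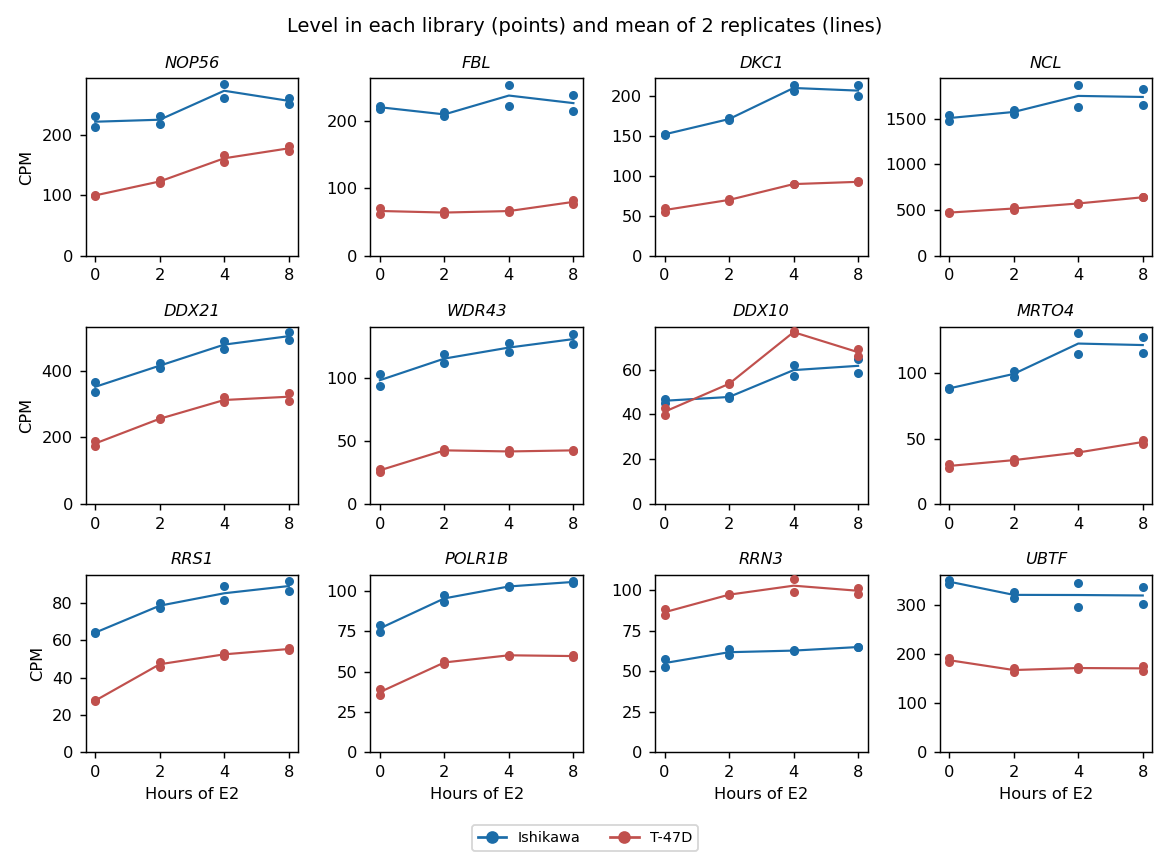
Level in CPM (within-line TMM scaling, axes from 0) of 12 of the genes in each library (points) against hours of E2 (time points drawn at even spacing), with the mean of the 2 replicates as a line for Ishikawa (blue) and T-47D (red) cells. RRS1, WDR43 and POLR1B climb most steeply by 2 h in T-47D cells, NOP56 climbs to 8 h, FBL moves little before 8 h, and UBTF lies lower after E2 in T-47D cells.

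The 6 genes of RNA polymerase I did not move as 1 group. POLR1A and POLR1B encode the catalytic subunits, POLR1C is shared with RNA polymerase III, POLR1E is a smaller polymerase I subunit, RRN3 recruits the polymerase to the promoter, and UBTF binds ribosomal DNA along its length. Late, 4 were called higher in Ishikawa (background 13.2%) and 5 in T-47D cells (background 15.5%), with medians of 0.22 and 0.35. UBTF was called lower in T-47D cells (background 14.9%).

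POLR1B, at chr2:113299492-113337395 (GRCh37), had the largest late change of the 6 in both lines. It stood in Ishikawa cells at 78.9 and 74.5 CPM without E2, 93.3 and 97.2 CPM after 2 h, 103 and 102 CPM after 4 h, then 105 and 106 CPM by 8 h. In T-47D cells it stood at 35.3 and 39.3 CPM without E2, 55.0 and 56.3 CPM after 2 h, 60.5 and 59.6 CPM after 4 h, then 58.8 and 60.4 CPM by 8 h. Most of the increase was present by 2 h in both lines and no treated library overlapped the 0 h libraries. By edgeR, POLR1B had the largest 2 h change of the 54 genes in Ishikawa cells, 0.31 ± 0.06 (adjusted p = 0.00366), which lost its call without replicate 2 of 2 h (adjusted p = 0.117), and 0.58 ± 0.06 (adjusted p = 1.5e-06) in T-47D cells. The late change was 0.44 ± 0.05 (adjusted p = 1.96e-05) and 0.68 ± 0.05 (adjusted p = 1.49e-08), respectively.

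POLR1A, the largest subunit, had smaller changes. It stood at 136 and 146 CPM without E2, 139.5 and 147 CPM after 2 h, 172 and 159 CPM after 4 h, then 149.7 and 175 CPM by 8 h in Ishikawa cells. It stood at 67.3 and 69.5 CPM without E2, 68.9 and 74.1 CPM after 2 h, 81.9 and 78.7 CPM after 4 h, then 85.8 and 88.1 CPM by 8 h in T-47D cells. In both lines only 1 of the 2 libraries of 2 h exceeded both 0 h libraries and all 4 late libraries did. The late change of 0.29 ± 0.05 (adjusted p = 8.71e-05) in T-47D cells passed edgeR's test whichever library was left out, and that of 0.22 ± 0.06 (adjusted p = 0.0211) in Ishikawa cells was lost without either library of 0 h, replicate 1 of 4 h or replicate 2 of 8 h (adjusted p from 0.0561 to 0.146).

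POLR1C stood at 26.6 and 30.9 CPM without E2, 31.7 and 34.0 CPM after 2 h, 36.7 and 32.6 CPM after 4 h, then 33.5 and 34.2 CPM by 8 h in Ishikawa cells. In T-47D cells it stood at 24.6 and 22.8 CPM without E2, 30.2 and 33.0 CPM after 2 h, 31.9 and 29.9 CPM after 4 h, then 31.7 and 32.9 CPM by 8 h. Treated libraries lay above both 0 h libraries in both lines, and in T-47D cells the 2 h libraries were already at the later level. In edgeR's test the change was 0.42 ± 0.07 (adjusted p = 0.000713) at 2 h and 0.42 ± 0.06 (adjusted p = 6.77e-05) late in T-47D cells. The Ishikawa late change, 0.25 ± 0.08 (adjusted p = 0.0274), was lost without replicate 1 of 0 h (adjusted p = 0.214), replicate 1 of 4 h (adjusted p = 0.0981) or replicate 2 of 8 h (adjusted p = 0.0632). POLR1C overlaps XPO5, YIPF3 and LRRC73 on the other strand, and the strand setting of the counting is not given in the sources used here. Several other members overlap counted genes too, such as NOP56 (MIR1292, SNORA51, SNORD110 and SNORD86 on its own strand) and WDR3 (SPAG17 on the other strand).

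POLR1E rose from 4 h on in T-47D cells. It stood there at 16.04 and 17.7 CPM without E2, 16.7 and 17.7 CPM after 2 h, 20.7 and 21.4 CPM after 4 h, then 25.8 and 23.3 CPM by 8 h. In Ishikawa cells it stood at 50.8 and 53.4 CPM without E2, 55.2 and 51.5 CPM after 2 h, 61.1 and 57.0 CPM after 4 h, then 54.3 and 56.8 CPM by 8 h. The T-47D libraries of 4 h and 8 h were above all earlier ones, and in edgeR's test the change was 0.32 ± 0.08 (adjusted p = 0.00961) at 4 h and 0.54 ± 0.08 (adjusted p = 6.8e-05) at 8 h. The Ishikawa late change was 0.14 ± 0.06 (adjusted p = 0.11).

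RRN3, the initiation factor, was the gene of the 54 with the highest T-47D level relative to Ishikawa cells. It stood at 57.4 and 52.6 CPM without E2, 59.7 and 63.7 CPM after 2 h, 62.5 and 62.9 CPM after 4 h, then 64.9 and 64.9 CPM by 8 h in Ishikawa cells. It stood at 88.1 and 84.6 CPM without E2, 97.5 and 96.7 CPM after 2 h, 106 and 98.8 CPM after 4 h, then 97.7 and 101 CPM by 8 h in T-47D cells. Treated libraries were above both 0 h libraries in both lines by a small margin, with an edgeR late change of 0.21 ± 0.06 (adjusted p = 0.0142), lost without replicate 2 of 0 h (adjusted p = 0.141), and 0.23 ± 0.04 (adjusted p = 0.000634), respectively. Copies of RRN3 in the genome may share its reads.

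UBTF went the other way. It stood at 184 and 191 CPM without E2, 162 and 172 CPM after 2 h, 169.9 and 173 CPM after 4 h, then 175 and 166 CPM by 8 h in T-47D cells. In Ishikawa cells it stood at 342 and 350.5 CPM without E2, 326 and 314 CPM after 2 h, 345 and 294 CPM after 4 h, then 301 and 336 CPM by 8 h. All 6 treated T-47D libraries and 5 of the 6 treated Ishikawa libraries were below both 0 h libraries. The edgeR late change was -0.13 ± 0.04 (adjusted p = 0.0191) in T-47D cells, lost without replicate 2 of 0 h (adjusted p = 0.206) or replicate 1 of 4 h (adjusted p = 0.0815), and -0.12 ± 0.06 (adjusted p = 0.175) in Ishikawa cells, which passed without replicate 1 of 4 h (adjusted p = 0.03). The 2 h call in T-47D cells, -0.16 ± 0.05 (adjusted p = 0.0345), was lost in 6 of 8 fits that left out 1 library, those without a library of 0 h, 2 h or 4 h, with adjusted p from 0.0607 to 0.412, and it missed the threshold with at least 10 counts required in every library (adjusted p = 0.0517).

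The time of the first call was as follows. In T-47D cells 25 genes were first called higher at 2 h, another 20 at 4 h and the last 5 at 8 h. In Ishikawa cells 5 were first called at 2 h, another 33 at 4 h and the last 3 at 8 h by the labels as given. The late Ishikawa libraries resembled each other across labels, so first calls at 4 h and at 8 h cannot be told apart there. The share of all genes tested that was first called at each time was not computed. Calls over all genes also grew with time. At 2, 4 and 8 h, 4.9%, 11.1% and 15.4% of all genes tested were called higher in T-47D cells. In Ishikawa cells 2.61%, 7.66% and 12% were. The 5 genes called at 2 h in Ishikawa cells, WDR3, DDX21, RRS1, GNL3 and POLR1B, were called at 2 h in T-47D cells too. At the late contrast the 43 genes called in Ishikawa cells were all called in T-47D cells, and 7 more were called in T-47D cells alone. That does not by itself show that those 7 differed between the lines. With 50 of the 54 called late in T-47D cells, a wide overlap follows largely from that count alone. The share of all genes called in both lines was not computed at any time.

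Steps within the treated time course were smaller. From 2 h to 4 h in T-47D cells, 19 genes rose (background 1.94%), with a median log2 step of 0.17. Neither edgeR (background 1.46%) nor DESeq2 called any lower, nor did any reach an unadjusted p under 0.05 in that direction. After DDX10, the largest steps called were NOP56 at 0.39 ± 0.05 and RRP9 at 0.39 ± 0.08. The count dropped to 8 without replicate 1 of 2 h, 7 without replicate 2 of 2 h, 8 without replicate 1 of 4 h and 10 without replicate 2 of 4 h. From 4 h to 8 h, 7 genes rose further (background 2.09%), with a median step of 0.06: FBL (0.27 ± 0.06), MRTO4 (0.27 ± 0.07), NOC2L (0.25 ± 0.05), EBNA1BP2 (0.21 ± 0.06), NOLC1 (0.21 ± 0.04), NCL (0.16 ± 0.04) and NPM1 (0.15 ± 0.04), of which 3 are abundant nucleolar proteins. That count was 2 without replicate 1 of 4 h, 0 without replicate 2 of 4 h and 2 without replicate 1 of 8 h. None was called lower by edgeR (background 1.33%), 1 had a negative step with p under 0.05 before adjustment, and DESeq2 called 1. In Ishikawa cells, 17 genes were higher in the 4 h and 8 h libraries than at 2 h (background 2.13%), with a median of 0.19 and BOP1 (0.41 ± 0.08), DDX10 (0.35 ± 0.06) and RRP12 (0.34 ± 0.08) on top, and this count was 0 without either library of 2 h, 6 without replicate 1 of 4 h, 26 without replicate 2 of 4 h and 6 without replicate 2 of 8 h. None of the 54 was called lower there by edgeR (background 2.39%) or DESeq2 or had a negative change at an unadjusted p under 0.05.

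Whether the lines responded differently was tested as the interaction of line and time over all 16 libraries. A positive value means a larger log2 fold change in T-47D cells. At 2 h, 5 of the 54 genes responded more in T-47D cells (background 1.4%): RRS1 (0.49 ± 0.09, adjusted p = 0.00134 by edgeR), BYSL, WDR43, NOP16 and DDX10. At 4 h 8 did (background 3.21%), with the largest values for DDX10 (0.53 ± 0.09, adjusted p = 0.00053) and RRS1 (0.52 ± 0.09, adjusted p = 0.000418), followed by BYSL, NOP56, NOC3L, DDX21, POLR1B and GTPBP4. At 8 h 12 did (background 5.32%), led by NOP56 (0.62 ± 0.08, adjusted p = 2.17e-05) and RRS1 (0.52 ± 0.09, adjusted p = 0.000309), with BYSL, POLR1E, NOP2, NOP16, RRP9, NOP14, NOLC1, DDX21, DDX10 and DKC1 after them.

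None of the 54 responded more in Ishikawa cells by edgeR or DESeq2 at any time, and at an unadjusted p under 0.05 there was 1, at 8 h. Of all genes tested, edgeR called 1.28%, 2.83% and 4.7% in that direction at 2, 4 and 8 h. PPAN had the largest differences at all times, up to 0.89 ± 0.39 (adjusted p = 0.18) at 8 h, none of them called with all libraries. Its 8 h difference was 1.68 (adjusted p = 0.0229) without replicate 1 of 0 h in T-47D cells and 0.40 (adjusted p = 0.607) without replicate 2. RRS1 and NOP56 kept their 8 h call whichever library was left out. DDX10 did not: its 8 h call was lost in 13 of 16 such fits and under DESeq2 (adjusted p = 0.0533), and DKC1 lost its own in 14 of 16. DDX21 lost its 8 h call in 4 of 16, without replicate 1 of 0 h or of 8 h in Ishikawa cells or replicate 2 of 0 h or of 8 h in T-47D cells (adjusted p from 0.0826 to 0.0975), and with only the time points compared (adjusted p = 0.0845). POLR1E lost its 8 h call without replicate 1 of 0 h (adjusted p = 0.0571) or of 8 h (adjusted p = 0.0533) in T-47D cells, and with 4 h and 8 h as 1 group (0.30, adjusted p = 0.0903). Without replicate 1 of 8 h in either line the 12 calls at 8 h became 3, and without any of 5 other libraries (replicate 1 of 0 h and of 2 h in Ishikawa cells, replicate 2 of 0 h, replicate 1 of 4 h and replicate 2 of 8 h in T-47D cells) they became 7. The 8 calls at 4 h became 5 without replicate 1 of 0 h and 4 without replicate 2 of 4 h in Ishikawa cells, and 4 without replicate 2 of 0 h or replicate 1 of 4 h in T-47D cells, and the 5 calls at 2 h became 1 without replicate 1 of 2 h in Ishikawa cells or replicate 2 of 2 h in T-47D cells, 2 without the other library of 2 h of either line, and 3 without any library of 4 h or of T-47D cells at 0 h. The 0 calls in the other direction at 8 h became 2 without replicate 1 of 0 h in Ishikawa cells.

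**Figure D4:**
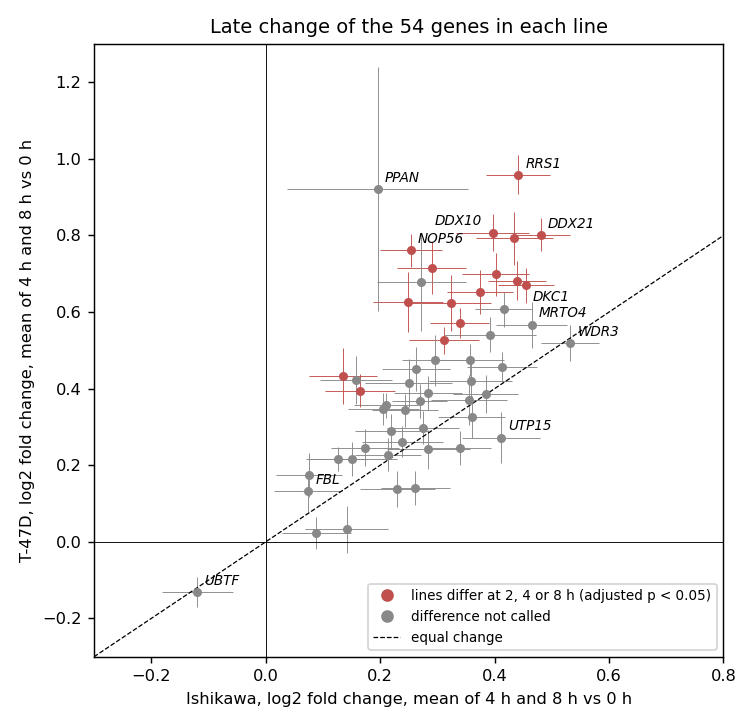
Late log2 fold change of each of the 54 genes in Ishikawa cells (x axis) and T-47D cells (y axis), with SE bars and a dashed line of equal change. Genes whose response differed between the lines at 2, 4 or 8 h are red and lie above the line, 44 of the 54 points lie above it, and UBTF is below 0 on both axes. The share of all genes above the line was not computed.

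Before E2 the 54 genes were mostly lower in T-47D cells. At 0 h, 43 were lower in T-47D than in Ishikawa cells (background 42.4%) and 5 higher (background 39.5%), with a median log2 difference of −0.89, while the median over all genes tested was −0.05. Of the roles, the box C/D members were all lower, as were 17 of the 18 large-subunit genes and 14 of the 21 small-subunit genes. The widest gap was in NOP2, at 57.9 ± 4.89 CPM per kilobase of transcript in Ishikawa and 5.94 ± 0.169 in T-47D cells (mean ± SD, n = 2, scaled over all 16 libraries), a log2 difference of -3.29 ± 0.09. It was followed by PPAN (-2.20 ± 0.29), WDR43 (-1.80 ± 0.07) and RRP9 (-1.68 ± 0.08).

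RRN3 stood out on the other side, at 14.5 ± 0.969 CPM per kilobase in Ishikawa and 23.8 ± 0.778 in T-47D cells, a log2 difference of 0.72 ± 0.06 (adjusted p = 4.53e-10) by edgeR. The other 4 genes higher in T-47D cells, all of the small subunit, were UTP18, NOC4L, IMP3 and DDX52, with differences from 0.19 to 0.24. The 5 became 3 without replicate 1 of 0 h of either line. NPM1 was the most abundant of the 54 per kilobase in both lines, at 859 ± 49.5 in Ishikawa and 793 ± 31.0 in T-47D cells, and its difference of -0.11 ± 0.05 (adjusted p = 0.0518) did not pass. NCL was next in Ishikawa cells, at 375 ± 12.1, and NOP10 in T-47D cells, at 151 ± 5.73, followed there by NCL at 123 ± 3.04. PPAN was the least abundant in both lines, at 1.29 ± 0.041 and 0.276 ± 0.163, and BOP1 has no transcript length in the annotation used.

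**Figure D5:**
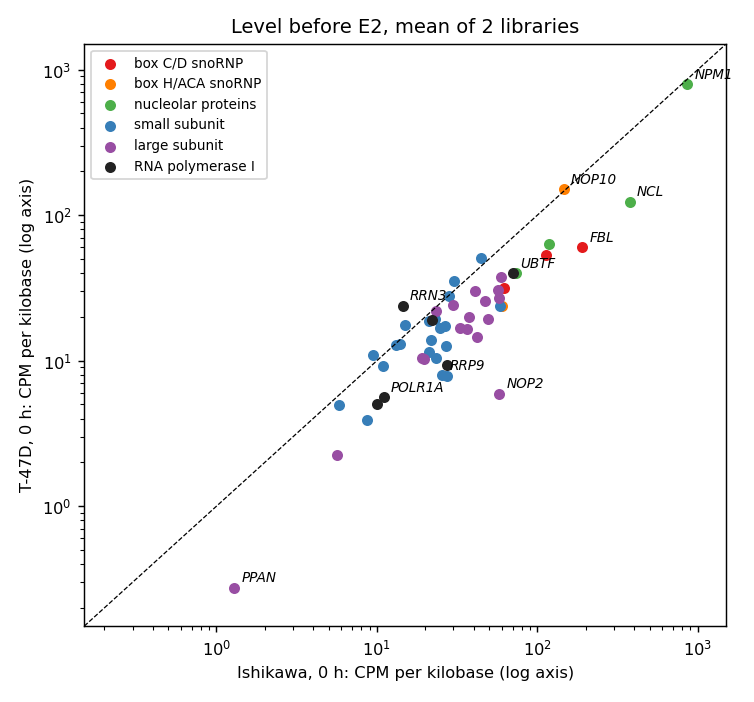
Level before E2 of 53 of the 54 genes in Ishikawa cells (x axis) and T-47D cells (y axis), in CPM per kilobase of transcript as the mean of 2 libraries, on log axes and coloured by role. Most points lie under the dashed line of equal level, NOP2 farthest, and RRN3 lies above it.

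At 8 h the summed level of the 54 genes was still lower in T-47D cells, at 6018 and 6011 CPM, than in hormone-deprived Ishikawa cells, at 8076 and 7905 CPM, on scales set within each line. The sum is weighted to abundant genes. Mean NCL was 640 CPM in those T-47D and 1507 in those Ishikawa libraries, while mean NPM1 was 1253 and 1160.

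Of the 54 genes, 9 carry annotated small nucleolar or Cajal-body RNA genes within them in GENCODE on GRCh37: NOP56, NOP58, DKC1, NCL, WDR43, TSR1, GNL3, PPAN and POLR1C. The annotation holds 25 such entries, some of which share a name. These RNAs are cut from introns, and the poly(A) libraries were not made to measure them. Some, such as SNORA51 in NOP56, are among the counted genes, and their counts are not described here.

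The other genes of the pathway, a list of 86 with the same roles, were called higher in a smaller share. In the late contrast 48 of 86 (55.8%) were called higher in Ishikawa and 59 (68.6%) in T-47D cells, beside the 43 and 50 of 54 above, with medians of 0.20 and 0.22, where 13.2% and 15.5% of all genes tested were called higher. At 2 h, 6 of the 86 (6.98%) were called higher in Ishikawa cells, against 2.61% of all genes tested, and 23 (26.7%) in T-47D cells, against 4.9%. Late, 1 of the 86 was called lower in each line (background 11.9% in Ishikawa and 14.9% in T-47D cells). The largest late changes were MAK16 (0.58 ± 0.06, adjusted p = 1.11e-05) and RPF2 (0.50 ± 0.06, adjusted p = 2.64e-05) in Ishikawa cells and LYAR (0.75 ± 0.08, adjusted p = 1.02e-06) and BRIX1 (0.62 ± 0.06, adjusted p = 3.68e-07) in T-47D cells by edgeR, all of large-subunit assembly or nucleolar growth. The genes called lower were TAF1C (-0.29 ± 0.10, adjusted p = 0.0382), a subunit of the promoter selectivity factor of RNA polymerase I, in Ishikawa cells, and POLR2L (-0.15 ± 0.04, adjusted p = 0.0155), a subunit that all nuclear RNA polymerases share, in T-47D cells. Among these, of 14 genes of RNA polymerase I, 4 (28.6%) were called higher late in Ishikawa and 5 (35.7%) in T-47D cells, and 1 was called lower in each line.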

How the data were processed

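Per the labels, poly(A) RNA of 16 libraries was sequenced, and the authors deposited 1 table of raw gene counts per line. Per the study's methods, reads had been aligned to the human genome (GRCh37) with HISAT2 and assigned to UCSC genes by featureCounts. The strand setting and the treatment of read pairs are not given in the sources used here. Of the counts from 1 to 10, between 71.2% and 74.6% were even, so counts divided by 2 were added as an alternative after seeing the data. Columns were matched to samples by name and groups taken from the labels.

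Within each line, genes were filtered by edgeR's filterByExpr, scaled by TMM and tested with edgeR's quasi-likelihood test (edgeR 4.0.16, limma 3.58.1, R 4.3.3) on 4 time points of 2 libraries, with Benjamini-Hochberg adjustment over all genes tested (15787 in Ishikawa cells, 15594 in T-47D cells, 17090 with both lines). Log2 CPM, used only to compare libraries with each other, had a prior count of 2, and log2 fold changes were those of edgeR's fit at its default setting. The biological coefficient of variation was 6.45% and 5.02%. DESeq2 1.42.0 was an alternative. The procedure was tested on simulated data with larger changes than most of those described here, so how well it finds small changes was not tested. Positions and transcript lengths came from GENCODE on GRCh37 and promoter windows from RefSeq on GRCh38.p14.

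The 54 genes, the other lists and the tests were chosen with earlier results of these data known. Values per library are given for the genes with the largest called late changes in each line (4 up, 3 down), the 3 largest called at 2 h, the 3 largest called differences between lines, RNA polymerase I, the box C/D genes, NCL and NPM1. Other genes are named where a count or a ranking turns on them, chosen after their values were seen, and of the other pathway genes the 2 called with the largest late change in each direction are named.

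Same-numbered replicates did not deviate together (correlations from −0.1145 to 0.0533 in Ishikawa cells and from −0.0547 to 0.0595 in T-47D cells), so no replicate block was used. Replicates differed by more than counting noise, with chi-square per gene from 3.6 to 10.8.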

Additional observations from a re-analysis of the deposited data

Results flagged for a closer look

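The response of 16 of the 54 genes differed between the lines in at least 1 test of the difference itself. That was the interaction of line and time in edgeR's quasi-likelihood test over 16 libraries. Of all genes tested, 1.4%, 3.21% and 5.32% were called with a larger response in T-47D cells at 2, 4 and 8 h. The share called at any of these times was computed only for the 54. Several calls, such as those of DKC1 and DDX10 at 8 h, were lost when 1 library was left out. All values are log2 fold changes in T-47D cells minus those in Ishikawa cells, and all were positive. At 2 h the differences were 0.4521 for WDR43, 0.3474 for DDX10, 0.4711 for BYSL, 0.4345 for NOP16 and 0.4904 for RRS1.

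At 4 h they were 0.4037 for NOP56, 0.3482 for DDX21, 0.5348 for DDX10, 0.4075 for BYSL, 0.3746 for NOC3L, 0.5226 for RRS1, 0.2527 for GTPBP4 and 0.2808 for POLR1B. At 8 h they were 0.6201 for NOP56, 0.2466 for DKC1, 0.3038 for NOLC1, 0.3038 for DDX21, 0.3605 for RRP9, 0.3132 for NOP14, 0.297 for DDX10, 0.4513 for BYSL, 0.4222 for NOP2, 0.4207 for NOP16, 0.5208 for RRS1 and 0.45 for POLR1E. RRS1, BYSL and DDX10 were called at all 3 times.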

How the results depend on the processing

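With 2 libraries per time point, calls of small changes depended on single libraries. The causes of the changes below were not tested, apart from thresholds and libraries left out, which change the calls by construction. With adjusted p under 0.01 the counts of genes called were 1 (Ishikawa 2 h higher), 4 (Ishikawa late against 2 h), 0 (T-47D lower at 2 h, 8 h and late), 2 (T-47D 8 h against 4 h, higher), 2, 3 and 4 (interactions at 2, 4 and 8 h) and 3 (higher in T-47D cells at 0 h). With adjusted p under 0.1 they were 10, 26, 1 (T-47D lower at 4 h), 1 (T-47D 8 h against 4 h, lower) and 8 (interaction at 2 h). DESeq2 gave 8 at 2 h and 26 late against 2 h in Ishikawa cells and 1 lower at 4 h and from 4 h to 8 h in T-47D cells. Without a filter the counts were 9 at 2 h, 1 lower late and 28 late against 2 h in Ishikawa cells, 1 lower from 4 h to 8 h in T-47D cells and 8 in the 2 h interaction. With at least 10 counts in every library 0 genes were lower at 2 h in T-47D cells, and with counts divided by 2 there was 1 lower from 4 h to 8 h. RLE scaling gave 3 and 7 genes in the interactions at 2 h and 8 h.

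With the time points compared alone, T-47D cells had 1 gene lower at 4 h and 0 at 8 h, and the interactions had 4 each at 4 h and 8 h. With 4 h and 8 h as 1 group, 1 gene was lower in T-47D cells at 4 h, the T-47D medians were 0.42 at 4 h and 0.22 from 2 h, and the RRN3 interaction at 8 h turned from −0.0355 to 0.0192. With the replicate number as a block, 3 genes were called in the 2 h interaction and 3 were higher in T-47D cells at 0 h, and no other count of genes called moved by more than 1.5 times; the numbers do not pair the samples.

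Leaving out 1 library at a time gave ranges in Ishikawa cells of 0 to 16 genes higher at 2 h, 16 to 38 at 4 h, 21 to 41 at 8 h and 0 to 26 late against 2 h, 0 to 1 lower late, and a median of 0.21 to 0.36 at 4 h. In T-47D cells 0 to 1 were lower at 2 h, 4 h, 8 h, late and from 4 h to 8 h, 7 to 21 higher from 2 h to 4 h and 0 to 8 from 4 h to 8 h, with medians of 0.15 to 0.22 at 2 h, 0.34 to 0.42 at 4 h, 0.42 to 0.48 at 8 h, 0.38 to 0.46 late and 0.13 to 0.18 from 2 h to 4 h. The interactions ranged over 1 to 6 genes at 2 h, 4 to 10 at 4 h (median 1e-04 to 0.16) and 3 to 12 at 8 h (0 to 2 in the other direction, median 0.0852 to 0.207), and 3 to 5 genes were higher in T-47D cells at 0 h. Uncalled values that crossed 0 in such fits were, at 2 h in Ishikawa cells, PPAN (−0.172 to 0.0297), NOP56 (−0.033 to 0.0808), NPM1 (−0.0028 to 0.11), POLR1A (−0.0275 to 0.0797) and POLR1E (−0.0146 to 0.0849), at 2 h in T-47D cells FBL (−0.124 to 0.0456) and POLR1E (−0.0271 to 0.108), and in the 8 h interaction WDR3 (−0.109 to 0.016), RRN3 (−0.131 to 0.0301) and UBTF (−0.117 to 0.0304). Every count of genes called higher against 0 h in T-47D cells stayed within 1.5 times of its value in all these fits.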
